A study of Mus musculus with 2 samples.

Results

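The 10 genes described here, *Msx1*, *Msx2*, *Hand2*, *Emx2*, *Osr1*, *Osr2*, *Pax8*, *Tcf21*, *Nr2f2* and *Wt1*, encode transcription factors of the Mullerian tract, the endometrial stroma and the gonad. They were chosen by name for these roles, and all probes that carried their symbols were taken. They were 10 genes set against the 19057 that were named on the array, 9819 of which were detected on at least 1 array. Of the 10, 9 had named probes, 16 in all, and *Wt1* had none. RNA was measured in HOM mice, homozygous for the Y123F form of the leptin receptor, and in WT mice of the same litters. In Y123F, phenylalanine replaces tyrosines in the intracellular tail of LepRb. The substitutions are carried in the germ line, so every organ that uses LepRb carries them. All mice were 12-week-old females on a C57BL/6 background, on a standard diet. Each genotype was 1 pool of RNA from several mice, labelled as ovary, on 1 Illumina MouseWG-6 v2.0 array. The Methods describe RNA of 3 mice as mixed, and the heading of a supplementary table describes 6 ovaries of 6 mice. With 1 array per genotype there was no replicate error, no test was possible, and every ratio below compares these 2 pools only.

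The Mullerian duct is a tube of epithelium with its surrounding mesenchyme that forms beside the kidney and gonad ridges and becomes the oviduct, uterus and upper vagina. *Emx2*, *Pax8*, *Wt1* and the odd-skipped genes *Osr1* and *Osr2* act in this mesoderm. In the adult mouse uterus, stroma and epithelium signal to each other under estrogen and progesterone. *Nr2f2* and *Hand2* act in the stroma, and *Msx1* and *Msx2* prepare the epithelium and stroma for the embryo. *Tcf21* marks mesenchyme and fibroblasts of many organs and represses the steroidogenic regulator *Nr5a1* in the developing gonad. All of these proteins bind DNA, and small amounts of their mRNA can matter to a cell.

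*Msx1* and *Msx2* are close relatives whose homeodomain proteins can stand in for each other, and they gave opposite readings here: *Msx1* was detected on both arrays and *Msx2* on neither. The bases just upstream of both are therefore shown, from RefSeq on GRCm38.p6, each as the 250 bases before the start of the gene on the minus strand, 5′ to 3′. They lie at chr5:37824586-37824835 for *Msx1* and chr13:53472781-53473030 for *Msx2*. Capitals mark CCAAT or, for the other strand, ATTGG, letters that several common promoter-binding factors read.
Msx1: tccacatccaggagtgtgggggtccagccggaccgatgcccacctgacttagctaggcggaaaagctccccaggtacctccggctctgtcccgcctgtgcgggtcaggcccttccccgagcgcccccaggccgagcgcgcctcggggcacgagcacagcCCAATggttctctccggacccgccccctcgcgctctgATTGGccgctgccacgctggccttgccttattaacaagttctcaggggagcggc
Msx2: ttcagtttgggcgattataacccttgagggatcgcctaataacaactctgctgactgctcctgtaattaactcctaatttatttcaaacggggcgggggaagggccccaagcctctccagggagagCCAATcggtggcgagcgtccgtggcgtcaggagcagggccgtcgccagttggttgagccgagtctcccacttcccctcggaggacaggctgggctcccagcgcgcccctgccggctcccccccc
Both stretches hold CCAAT, *Msx1* at 2 places and *Msx2* at 1, and they are rich in CpG, with 20 in *Msx1* and 16 in *Msx2* against a median of 6 over all 32851 promoters in the RefSeq set. Upstream bases were given for 7 of the 10 genes, without *Osr1*, *Osr2* and *Wt1*. CCAAT on either strand was found in 6 of these 7, all but *Tcf21*, and in 33.8% of all promoters. CANNTG, the E-box that bHLH proteins such as *Hand2* and *Tcf21* bind, reads the same on both strands and was found in 4 of 7, against 66.2% of all promoters. TAATTG on either strand, letters that Msx homeodomains prefer, was found in *Hand2* alone, against 7.17% of all promoters, and TATAAA on either strand in 0 of 7, against 12.4%. The letters can overlap, since CCAATTG holds both CCAAT and CANNTG. These matches describe the sequence and show nothing of binding, and no common feature of the detected genes was read from them.

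Signals below are background-subtracted probe intensities as deposited, and detection required a p-value below 0.01, which the scanner software sets from negative control beads. The lowest signal that passed was 15.9 in HOM and 15.1 in WT. The ratios, log2 HOM/WT, were taken after correction for background with an offset of 16 and quantile normalization, so they are not the ratios of the printed signals. The HOM array was the brighter one, with 15589 detected probes against 14902 on the WT array, and 73.6% of all detected probes had a higher deposited signal on it. Over the detected genes log2 HOM/WT had a median of 0.04 with quantile normalization, 0.22 with median scaling and 0.28 with no scaling, and small ratios have to be read relative to these. The 2 named probes of *Lepr*, the mutated receptor gene, were detected on neither array, with signals of 5.89 and -3.68 in HOM and 7.45 and -6.16 in WT. By other methods the paper reports *Lepr* mRNA in the ovary, higher in HOM, and LepRb protein, so non-detection here is not absence. Since the mutation substitutes bases within the gene, its level checks no label.

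The labelled organ was checked against marker genes. Of 6 measured granulosa cell genes 1 was detected, of 6 theca and luteal genes 1, and of 8 oocyte genes 3, and the steroidogenic genes *Star*, *Cyp11a1* and *Cyp17a1* were detected on neither array. In contrast, 8 of 8 fibroblast and stromal genes, 7 of 8 smooth muscle genes, 8 of 9 epithelial genes and 7 of 7 genes of uterine and oviduct glands were detected. Most defining markers of ovary were thus not detected on either array, *Inha*, *Insl3* and *Gdf9* being detected on both, and the values below are of RNA labelled as ovary. In such mixed RNA, fewer cells of a type and less RNA per cell cannot be told apart.

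Of the 10 genes, 6 were detected, all of them on both arrays (*Msx1*, *Hand2*, *Osr2*, *Pax8*, *Tcf21* and *Nr2f2*), and 3 on neither (*Msx2*, *Emx2* and *Osr1*). None was at least 2-fold higher and none at least 2-fold lower in HOM, where 0.407% of all detected genes were at least 2-fold higher and 1.49% at least 2-fold lower. The ratios lay between -0.20 for *Msx1* and 0.19 for *Osr2* on the log2 scale, with 2 genes above 0 and 4 below. With median scaling or no scaling all 6 lay above 0, and *Nr2f2* lay below 0 when its probes were averaged. Only *Osr2* thus stayed on 1 side of 0 under every way of processing that was tried. The median of all detected genes rose too, and relative to it no representing probe changed direction with scaling. With quantile normalization, and then with median or no scaling, *Msx1* lay at -0.24 and -0.16 from that median, and *Hand2* at -0.11 and -0.16. *Pax8* lay at -0.12 and -0.19, *Tcf21* at -0.16 and -0.13, *Osr2* at 0.15 and 0.10, and *Nr2f2* at 0.004 and 0.03. The median of the 6 was -0.08, which was 0.11 below that of all detected genes, or 0.14 below with median scaling or no scaling. Each of the 6 lay within 1 SD of the ratios of all detected genes, which was 0.41.

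**Figure D1:**
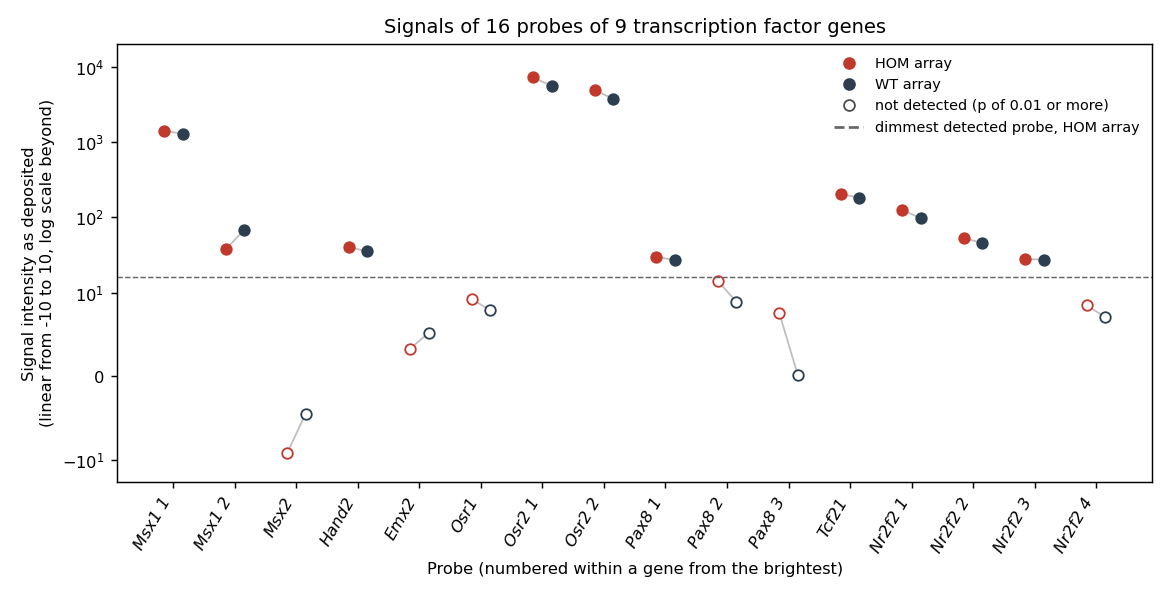
Deposited signal intensity (y axis, linear near 0 and logarithmic beyond) of the 16 probes of 9 transcription factor genes (x axis), with the HOM array in red left of the WT array in dark blue, filled where detected and open where not. The 10 detected probes lie above the dashed line at the dimmest detected signal of the HOM array, 15.9, and in 9 of them the HOM point is the higher one before normalization.

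The probes of 1 gene gave the only measure of technical error. Over the 3225 genes with several detected probes, the SD of log2 HOM/WT between probes of a gene was 0.33. Of the 10 detected probes of these transcription factors 1 exceeded it in either direction, against 41.2% of all 14195 detected probes. Before normalization, 9 of the 10 had the higher signal on the HOM array, in the direction of most probes. The ratios of these regulators were thus mostly of the size that separates probes of the same gene.

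*Msx1* represses transcription and keeps uterine epithelium and stroma ready for implantation. Its RefSeq probe, ILMN_1246173, had a signal of 1400 in HOM and 1290 in WT (log2 HOM/WT = -0.20, and 0.05 with median scaling). The second probe, ILMN_1215278, designed on a cDNA clone record, had 37.3 in HOM and 67.5 in WT, with detection on both arrays. This was the only one of the 10 detected probes with the lower deposited signal in HOM, and its log2 HOM/WT was -0.85, lower than all but 2.91% of detected probes. Without background correction and in the authors' normalized values it was -1.12, past 2-fold, and with an offset of 50 it was -0.56. The 2 probes differed by 0.65 on the log2 scale, and among 2324 genes with exactly 2 detected probes 14.1% differed by more. The mean of the probes was -0.53. An antisense gene, *Msx1os*, overlaps *Msx1* in RefSeq and had no named probe, and which transcript the second probe reads was not tested.

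*Msx2*, which shares these uterine roles, had signals of -9.23 in HOM and -4.48 in WT, with detection p-values of 0.90 and 0.76. Both lay below the mean level of the negative beads, and no ratio was drawn from its only probe. *Msx3*, the third mouse gene of the family, was detected on both arrays with 33.9 in HOM and 23.9 in WT (log2 HOM/WT = 0.14).

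**Figure D2:**
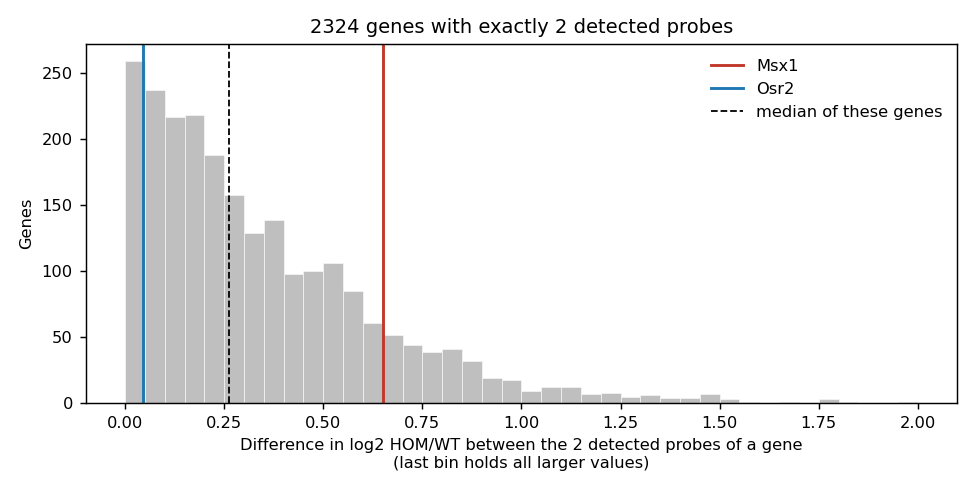
Number of genes (y axis) by the difference in log2 HOM/WT between their 2 detected probes (x axis, the last bin holding all larger values) for 2324 genes. *Msx1* (0.65, red) lies in the upper part of the distribution, *Osr2* (0.05, blue) in its lowest part, and the dashed line is the median of 0.26.

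*Osr2* encodes an odd-skipped zinc finger protein of limb, palate and urogenital mesenchyme. Its first probe, ILMN_2770979, had a signal of 7192 in HOM and 5524 in WT, and the second, ILMN_2781784, had 4873 in HOM and 3739 in WT. Both deposited signals were thus 1.30 times as high in HOM. After quantile normalization the log2 HOM/WT was 0.19 and 0.15, and with median scaling it was 0.32 for both. The probes differed by 0.05, less than in all but 9.94% of the 2324 genes with 2 detected probes. The ratio was nevertheless within the SD between probes, 0.33, and 63.3% of all detected genes had a larger ratio in either direction. Its relative *Osr1*, which is needed for intermediate mesoderm, had 9.21 in HOM and 7.88 in WT and was detected on neither array.

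The stromal regulators differed little between the arrays. *Hand2*, a bHLH protein that progesterone induces in uterine stroma and that restrains growth factor signals to the epithelium, had a signal of 40.0 in HOM and 35.3 in WT from its 1 probe (log2 HOM/WT = -0.07, and 0.06 with median scaling). *Tcf21*, a bHLH protein of mesenchyme, had 203 in HOM and 181 in WT (log2 HOM/WT = -0.12, and 0.09 with median scaling). The deposited signal was 1.13 times as high in HOM for *Hand2* and 1.12 times for *Tcf21*, and whether both ratios fell above or below 0 depended on the scaling. Relative to the median of all detected genes, both were lower with each scaling. *Hand2* was at -0.11 with quantile normalization and -0.16 with median or no scaling, and *Tcf21* at -0.16 and -0.13. Of all detected genes, 86.6% had a larger ratio in either direction than *Hand2*, and 76.5% a larger one than *Tcf21*.

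*Nr2f2*, or COUP-TFII, is the stromal nuclear receptor that Indian hedgehog from the uterine epithelium induces. It had 4 named probes, of which 3 were detected on both arrays. ILMN_3163196 had 124 in HOM and 96.9 in WT, ILMN_2695912 had 52.6 in HOM and 45.6 in WT, and ILMN_3076625 had 27.8 in HOM and 27.4 in WT. Their log2 HOM/WT was 0.04, -0.04 and -0.16, a range of 0.20. The sign depended on the probe taken, and with no scaling, where the median of all detected genes was 0.28, all 3 were above 0. The fourth probe, ILMN_2617297, was detected on neither array, with 8.45 in HOM and 7.04 in WT. The noncoding gene *B130024G19Rik*, which overlaps *Nr2f2* in RefSeq, had 234 in HOM and 177 in WT (log2 HOM/WT = 0.09, and 0.31 with median scaling). Strand and splice form of the *Nr2f2* probes were not tested.

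*Pax8* and *Emx2* act in the epithelium of the duct, and *Pax8* remains on in oviduct and uterine epithelium. The probe ILMN_1256173 of *Pax8* had 29.8 in HOM and 26.9 in WT, with detection on both arrays (log2 HOM/WT = -0.08, and 0.03 with median scaling). The second, ILMN_1218213, had 14.3 in HOM and 8.91 in WT, and the third, ILMN_2616389, 7.54 in HOM and 0.132 in WT, and neither was detected on either array. The detection p-value of the second was 0.021 in HOM and 0.082 in WT, so a looser limit of 0.05 would have counted it in HOM only. *Emx2* had 3.28 in HOM and 5.19 in WT, with detection p-values of 0.33 and 0.20. Its antisense neighbour *Emx2os* had 13.9 in HOM and 6.03 in WT and was also detected on neither array. For *Msx2*, *Emx2* and *Osr1* these arrays did not detect a transcript, which is not evidence that it was absent.

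**Figure D3:**
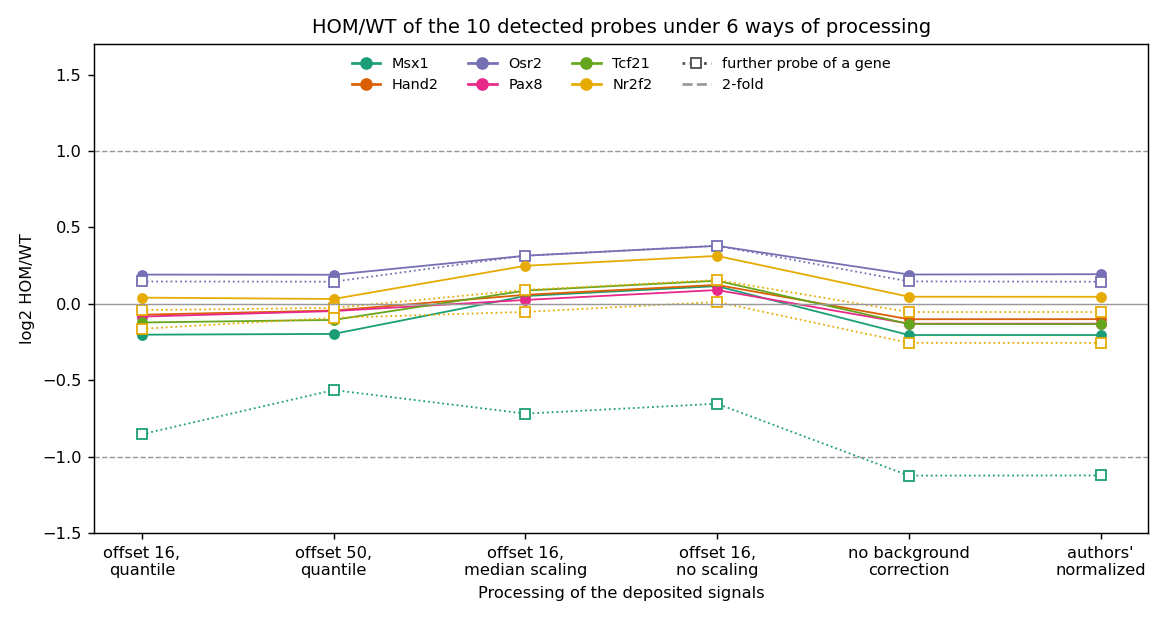
log2 HOM/WT (y axis) of the 10 detected probes under 6 ways of processing (x axis), with filled circles for the probe that represents a gene, open squares for its other probes, and dashed lines at 2-fold. All genes but *Osr2* lie on both sides of 0, through the scaling or, for *Nr2f2*, also through the probe taken. The median of all detected genes moves as well, at 0.04 with quantile normalization, 0.22 with median scaling and 0.28 with no scaling. Only the second *Msx1* probe comes near 2-fold, passing it without background correction and in the authors' normalized values (-1.12).

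The genes around these regulators were examined through 7 lists, which hold 70 other measured genes counted once each. Of these, 40 were detected. In HOM 1 of the 40, or 2.5%, was at least 2-fold higher, against 0.407% of all detected genes. At least 2-fold lower were 4, or 10%, against 1.49%. The median log2 HOM/WT was 0.02 against 0.04 over all detected genes. These shares were not tested, and the lists were chosen with earlier results of these data known. The 5 genes past 2-fold were the cytokine *Lif* and the transcription factors *Esr1*, *Tcf12*, *Gata6* and *Hoxa11*. The single *Hoxa11* probe was within 2-fold with median scaling (-0.92), and no scaling gave -0.86. List medians below are after quantile normalization. With median scaling, where the median of all detected genes was 0.22, those of the lists for the Mullerian duct, for *Msx* partners and for the gonad were 0.08, 0.05 and 0.09, above 0 instead of below. With either scaling these lists lay below the median of all detected genes.

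The closest relatives of the 10 genes and the E-proteins that pair with *Hand2* and *Tcf21* made up the first list, with 11 measured and 7 detected genes, 0 at least 2-fold higher, 1 at least 2-fold lower and a median log2 HOM/WT of 0.14. The 5 that were detected on both arrays had a median of 0.12. *Tcf12*, an E-protein, had 31.9 in HOM and 84.4 in WT (log2 HOM/WT = -1.29), but its other detected probe gave 0.38. *Tcf4*, a further E-protein, had 1853 in HOM and 2591 in WT (log2 HOM/WT = -0.77), from the 1 detected probe of 3. *Tcf3*, also an E-protein, was detected in HOM only, with a bound of at least 1.02-fold higher, too close to 1 to give a direction. The *Nr2f2* relative *Nr2f6* had 629 in HOM and 400 in WT (log2 HOM/WT = 0.33). Thus *Tcf12* and *Tcf4* were lower in HOM by the representing probe, and the probes of *Tcf12* went in opposite directions.

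The relay from epithelium to stroma had 14 measured genes, of which 11 were detected, 0 at least 2-fold higher and 2 at least 2-fold lower, with a median of 0.03. *Esr1*, the estrogen receptor that stroma and epithelium use, had 161 in HOM and 374 in WT (log2 HOM/WT = -1.44, and -1.21 with median scaling). Of the 4 named *Esr1* probes only this 1 was detected. *Hoxa11*, a homeobox gene needed for implantation, had 48.7 in HOM and 101 in WT (-1.09). *Cebpb*, a regulator of stromal decidualization, had 856 in HOM and 399 in WT, which gave 0.76 with quantile normalization and 1.01 with median scaling. The hedgehog receptor *Ptch1* had 248 in HOM and 148 in WT (log2 HOM/WT = 0.42). *Nr2f2*, which lies in the same relay, had ratios between -0.16 and 0.04 over its detected probes.

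**Figure D4:**
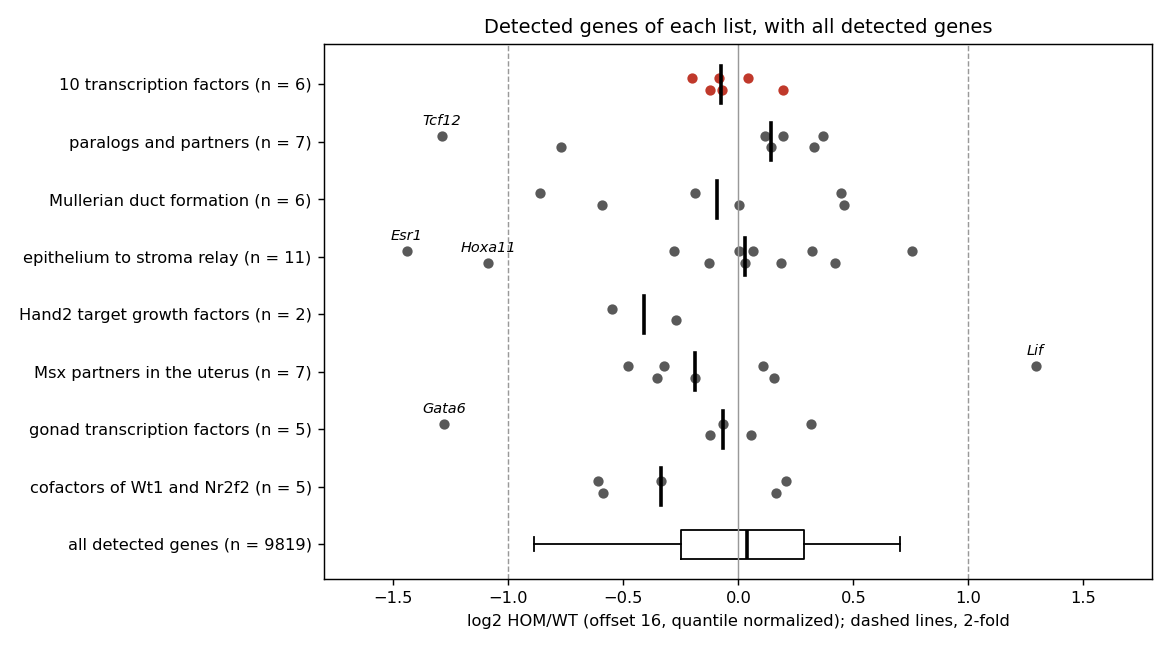
log2 HOM/WT after quantile normalization (x axis) of the detected genes of each list (points, 1 row per list, bar at the median), with a box for all 9819 detected genes showing quartiles, with 5% of genes beyond the whiskers, and dashed lines at 2-fold. The 6 detected transcription factors (red) lie close to 0, and the side of 0 on which all but *Osr2* fall depends on scaling or probe. The median of all detected genes moves with the scaling too. *Lif* lies beyond 2-fold to the right and *Esr1*, *Tcf12*, *Gata6* and *Hoxa11* to the left.

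Among 10 measured partners of *Msx1* and *Msx2* at implantation, 7 were detected, 1 was at least 2-fold higher and 0 were lower, with a median of -0.19. *Lif*, which implantation in mice requires, had 77.4 in HOM and 18.0 in WT (log2 HOM/WT = 1.29), and its other detected probe gave 1.08. *Cdh1*, the epithelial cadherin, had 235 in HOM and 272 in WT (-0.48), and the *Lif* coreceptor *Il6st* had 247 in HOM and 260 in WT (-0.36). The transducer *Stat3* had 495 in HOM and 500 in WT (-0.32, and -0.08 with median scaling), and its other detected probes gave -0.15 to 0.43. *Wnt5a*, the ligand that *Msx1* restrains in the uterus, is named here after its values were seen, with 560 in HOM and 516 in WT from the representing probe (-0.19) and between -1.40 and 0.21 from the others. Both detected probes of *Lif*, which had 5 named probes, were thus past 2-fold after quantile normalization. Its WT signal of 18.0 lay near the lowest that passed there, 15.1. The RefSeq probe of *Msx1* differed little between the arrays.

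The growth factors that *Hand2* restrains, with their receptors, had 8 measured and 2 detected genes, 0 of them past 2-fold in either direction, with a median of -0.41. *Fgf1* had 47.3 in HOM and 64.3 in WT (log2 HOM/WT = -0.55). The receptor *Fgfr2* had 1252 in HOM and 1206 in WT (-0.27, and 0.05 with no scaling), and its other detected probe gave 0.26. *Fgf2*, *Fgf9* and *Fgf18* were detected on neither array.

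Of 13 measured genes for forming the Mullerian duct 6 were detected, with 0 at least 2-fold higher, 0 at least 2-fold lower and a median of -0.09. The 4 that were detected on both arrays had a median of -0.39. *Ctnnb1*, the beta-catenin of Wnt signalling, had 1179 in HOM and 1731 in WT (log2 HOM/WT = -0.86), its other 3 detected probes gave -0.73 to 0.42, and the mean of the 4 was -0.46. *Wnt7a*, an epithelial ligand, had 46.2 in HOM and 65.2 in WT (-0.59). The retinoic acid receptors *Rarb* and *Rara* were detected in HOM only, with *Rarb* at least 1.16-fold and *Rara* at least 1.02-fold higher there, bounds that make no allowance for error. *Pax2* and *Lhx1*, which act beside *Pax8* and *Emx2* in the embryonic duct, were detected on neither array.

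Of 13 measured transcription factors of the early gonad, a list that also holds *Tcf21*, *Emx2* and *Wt1*, 5 were detected, with 0 at least 2-fold higher, 1 at least 2-fold lower and a median of -0.07. *Gata6* had 48.9 in HOM and 117 in WT (log2 HOM/WT = -1.28, and -1.11 with median scaling), from the 1 detected probe of 2. *Sox9* had 373 in HOM and 239 in WT (0.32), and *Nr0b1* had 20.4 in HOM and 18.7 in WT (-0.07, and 0.07 with no scaling). *Nr5a1*, which *Tcf21* represses in the gonad, *Gata4* and *Foxl2* were detected on neither array.

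Of 7 measured cofactors of *Wt1* and *Nr2f2* 5 were detected, with 0 past 2-fold in either direction and a median of -0.34. The 3 that were detected on both arrays had a median of -0.59. *Cited2*, a coactivator for Wt1, had 154 in HOM and 197 in WT (log2 HOM/WT = -0.61), but its other detected probe gave 0.56. *Zfpm2*, which binds Nr2f2 and GATA factors, had 29.9 in HOM and 44.4 in WT (-0.59), and *Pawr*, which binds Wt1, had 96.3 in HOM and 103 in WT (-0.34, and 0.14 from its other detected probe).

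Markers of the cells in which these regulators act are given beside them. The 8 detected stromal markers had a median log2 HOM/WT of 0.14 and a summed deposited signal of 12694 in HOM and 12063 in WT. They went in both directions, from -0.74 for *Dcn* and -0.65 for *Pdgfra* to 0.42 for *Col1a1* and 0.50 for *Thy1*. The 8 detected epithelial markers had a median of 0.04, or 0.12 over the 7 detected on both arrays. All 9 measured ones, with *Epcam*, which was detected on neither array, had a summed signal of 4089 in HOM and 3339 in WT. The 7 detected gland markers had a median of 0.33 and a summed signal of 2147 in HOM and 936.4 in WT, of which lactoferrin, *Ltf*, made up 1544 in HOM and 443 in WT. The 6 gland markers that were detected on both arrays had a median of 0.25. *Ltf* (log2 HOM/WT = 1.45, from the 1 detected probe of 2) and the protease *Prss29* (1.33, and 1.01 from its other detected probe) were at least 2-fold higher in HOM. The oviduct glycoprotein gene *Ovgp1* was at -0.95, from the 1 detected probe of 2. The paper's own array analysis also has *Ovgp1* lower in HOM, with a much larger difference than here. By qPCR it reports the opposite direction for this gene, higher in HOM. The part of these markers in the ratios of the transcription factors was not tested.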

How the data were processed

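RNA labelled as ovary was hybridised as 1 pool per genotype, and groups were taken from the genotype labels. The authors deposited background-subtracted probe intensities from GenomeStudio with a detection p-value for each, and a second table of normalized intensities. BeadStudio and robust multichip analysis are the tools in the Methods, and no version is given in the sources used here. The second table differed by at most 1.57 from quantile normalization of the first on the linear scale.

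Of 45281 probes, 34885 carried 1 gene symbol in the platform annotation, 18 several, and 10378 were not listed. Normexp correction of the intensities used the detection p-values. After adding 16, log2 values were quantile normalized (limma 3.58.1, R 4.3.3). The offset pulls ratios of dim probes toward 1. Tables were joined with pandas 2.3.3 in Python 3.11.15. The probe with the highest mean log2 value represented a gene. Genes past a log2 HOM/WT of 1 in either direction were counted, a rule of size and no test, which was tried on simulated data. The simulation changed bright probes only, on arrays of equal brightness, so it cannot show how the rule does for changes in dim probes. For a probe detected on 1 array, the bound is its normalized value there over the higher of its own value and that of the dimmest detected probe on the other array.

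All probes of the 10 genes were named, and from each other list any gene past 2-fold and up to 4 detected genes with the largest absolute ratio. Genes named as not detected, the neighbours and relatives *Msx3*, *B130024G19Rik* and *Emx2os*, and *Wnt5a* lie outside this rule and were picked after their values were seen. Likeness to other genes was not computed, because 2 arrays give only 2 points. The genes, lists and alternatives were chosen with earlier results of these data known. As alternatives, the offset was 50, background correction was left out with a floor of 1, arrays were scaled by the median or not at all, the authors' normalized values were used, and 3 other detection filters, the mean over probes, and folds of 1.5 and 3 were applied. Genes were matched by symbol to RefSeq, GRCm38.p6.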

Additional observations from a re-analysis of the deposited data

How the results depend on the processing

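By representing probe or probe mean, no transcription factor was past the limit in either direction under any alternative, folds of 1.5 and 3 included. The second *Msx1* probe, which these counts leave out, was past 1.5-fold at -0.85 in the main setting. It was past 2-fold, at -1.12, without background correction and in the authors' normalized values. Under each filter that uses detection, 6 transcription factors were detected. Their median log2 HOM/WT lay between -0.11 (no background correction) and 0.14 (no scaling). By alternatives alone 5 of the 6 changed sign, with *Osr2* between 0.17 and 0.38. Relative to the median of all detected genes, no representing probe changed direction between quantile normalization, median scaling and no scaling. The lowest value of any gene was -0.53, for *Msx1* as the mean over its probes. No paired analysis was possible because each genotype had 1 array, and for the same reason no array could be left out. Signal over background limits the dim probes. With an offset of 50 in place of 16, the second *Msx1* probe gave -0.56 instead of -0.85 and the third *Nr2f2* probe -0.09 instead of -0.16.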
